A study of Mus musculus with 6 samples.

Results

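The genes of mouse chromosome 6 were read on 6 Illumina bead arrays of pluripotent stem cells. The members were selected on the detection p-values of the deposited table: every array feature that the table places on chromosome 6 and that was detected, with a detection p-value under 0.05, on at least 2 of the 6 arrays. Of 1504 features placed on the chromosome 628 met this rule, among 18175 kept of 45281 on the whole array, and they stand for 454 of the 12634 genes tested. The other 876 features were detected on 1 array (51) or on none (825). Near the limit, the highest intensity of a feature had a median of 105 (97.3 to 141) among the 51 detected on 1 array and of 111 (105 to 241) among the 37 detected on 2. The chromosome itself was chosen because its genes were already known to be lower, as a group, in both induced pluripotent lines than in the embryonic stem cells, so that shared shift is a description here and carries no test.

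The arrays hold 3 lines with 2 samples each, which the design text calls biological replicates. Induced pluripotent stem (iPS) cells are body cells returned to an embryo-like state, and embryonic stem (ES) cells come from the embryo itself. The line named iPS here is PB-Oct4.2A.cherry iPS-/-, the line named low iPS is the PB-Oct4.2A.cherry (low) iPS-/- clone, and the third is ES cells without that construct in their label. All 3 lines have the strain label B6 and shared 1 culture medium, in which knockout serum replacement was combined with LIF, the GSK3 inhibitor CHIR99021 (3 µM) and the MEK inhibitor PD0325901 (1 µM). The labels do not say which gene the minus/minus sign refers to. Each kind of cell is 1 line, so the p-values below measure the spread between samples of a line and not between lines.

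Chromosome 6 of the mouse carries several well known gene neighbourhoods. Nanog, a transcription factor that holds cells in the pluripotent state, lies there beside Dppa3, a maternal factor that protects the genome from demethylation, and beside the glucose transporter gene Slc2a3. The same chromosome holds the Hoxa cluster of body-axis regulators, the imprinted genes Peg10 and Mest, and the natural killer gene complex of lectin-like receptors. The amount of RNA from the genes of a chromosome can follow the number of copies of that chromosome, and the number of copies was not measured on these arrays.

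The arrays were alike in depth. Median intensity lay between 87.3 and 95.98, and 35.9% to 37.6% of features were detected on an array. All 10 markers of pluripotent cells were detected on all 6 arrays, with a summed intensity of 57474 to 66798. Of 9 markers of fibroblasts and feeder cells none was detected on all arrays and 5, among them Col1a1, Col3a1 and Dcn, were detected on none. Their summed intensity, with background included, was 800 to 979 on 5 arrays and 1769 on ES replicate 2, where Acta2, an actin of contractile cells, read 1037 against 86.3 to 273 on the others. ES replicate 2 is also the array on which chromosome 6 stood highest, as given next, and the part of either measure in the other was not tested.

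On each array, levels were taken as log2 intensity after background correction and quantile normalisation, and a deviation is the level of a gene less its mean over the 6 arrays. The median deviation of the chromosome 6 genes, less that of all other autosomes, was -0.11 on both iPS arrays, -0.09 and -0.10 on the low iPS arrays, and 0.09 and 0.27 on the ES arrays. The 4 arrays of the iPS lines lay close together, both ES arrays lay above them, and the ES arrays differed from each other by more than the arrays of the other lines. Taken array by array, ES less an array of an iPS line gave a median of 0.17 to 0.39 over the 8 pairs, and chromosome 6 was the highest of the 19 autosomes in 6 of them. Chromosome 8 was highest in the other 2. The 2 iPS arrays differed by -0.00 in the chromosome 6 median and the 2 low iPS arrays by -0.01, whereas ES replicate 2 exceeded ES replicate 1 by 0.16, or 1.12-fold. On that ES pair chromosome 8 was next, at 0.13. These arrays read whole cultures, in which fewer cells expressing a gene and less RNA per cell cannot be told apart.

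**Figure D1:**
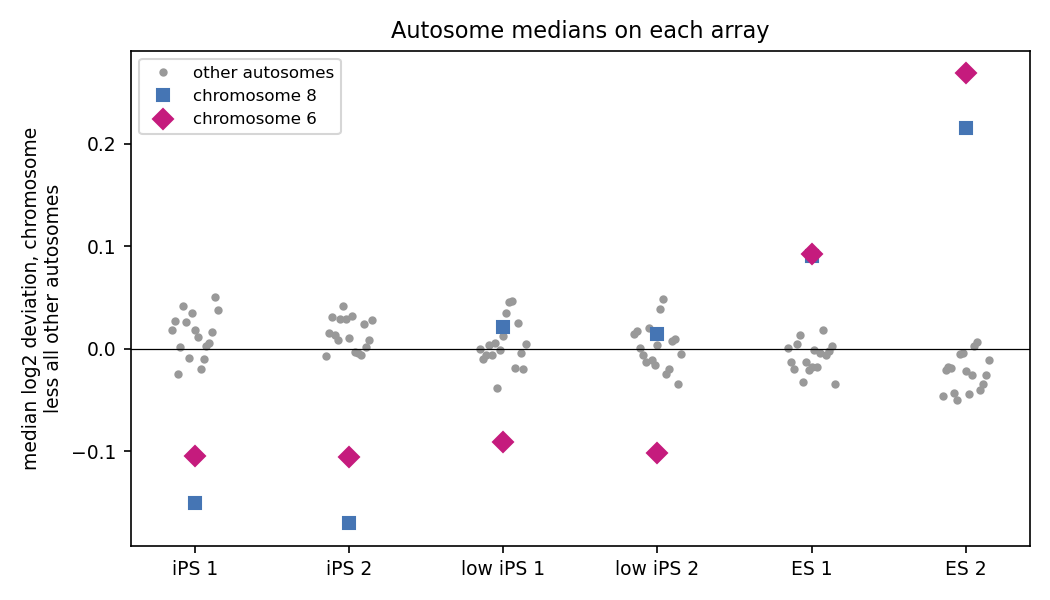
Median log2 deviation of each autosome on each of the 6 arrays, less the median of all other autosomes. Chromosome 6 (diamonds) lies between -0.11 and -0.09 on the 4 arrays of the iPS lines and at 0.09 and 0.27 on the ES arrays; chromosome 8 (squares) is low only on the iPS arrays and high on the ES arrays, and grey points are the other autosomes.

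Averaged over the samples of a line, the median change of the 454 genes was -0.28 on the log2 scale in iPS against ES, a level 1.21-fold lower, with 348 genes (76.7%) below 0. For low iPS against ES it was -0.31, or 1.24-fold lower, with 334 genes (73.6%) below 0. These comparisons share the ES arrays, so they are not independent. Low iPS against iPS, which uses no ES array, gave -0.03, with 236 genes (52.0%) below 0. The middle part of the genes, from the 25th to the 75th percentile, ran from -0.49 to -0.02 in iPS against ES, from -0.56 to 0.03 in low iPS against ES, and from -0.22 to 0.22 in low iPS against iPS. Most of the distribution lay below 0 in the ES comparisons, and it was centred near 0 between the iPS lines.

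The other 8381 autosomal genes had medians of -0.00, -0.02 and -0.01 in these 3 comparisons. Among the 18 other autosomes the lowest median was that of chromosome 8 in both ES comparisons, at -0.31 in iPS against ES and at -0.16 in low iPS against ES. The lowest after it was -0.03 and -0.06. Chromosome 8 differed between the iPS lines, by 0.15, and chromosome 6 did not by more than the other autosomes, which ran from -0.08 to 0.15. Leaving out ES replicate 1 took the chromosome 6 median to -0.38 in both ES comparisons, and leaving out ES replicate 2 took it to -0.21 in iPS and -0.19 in low iPS.

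**Figure D2:**
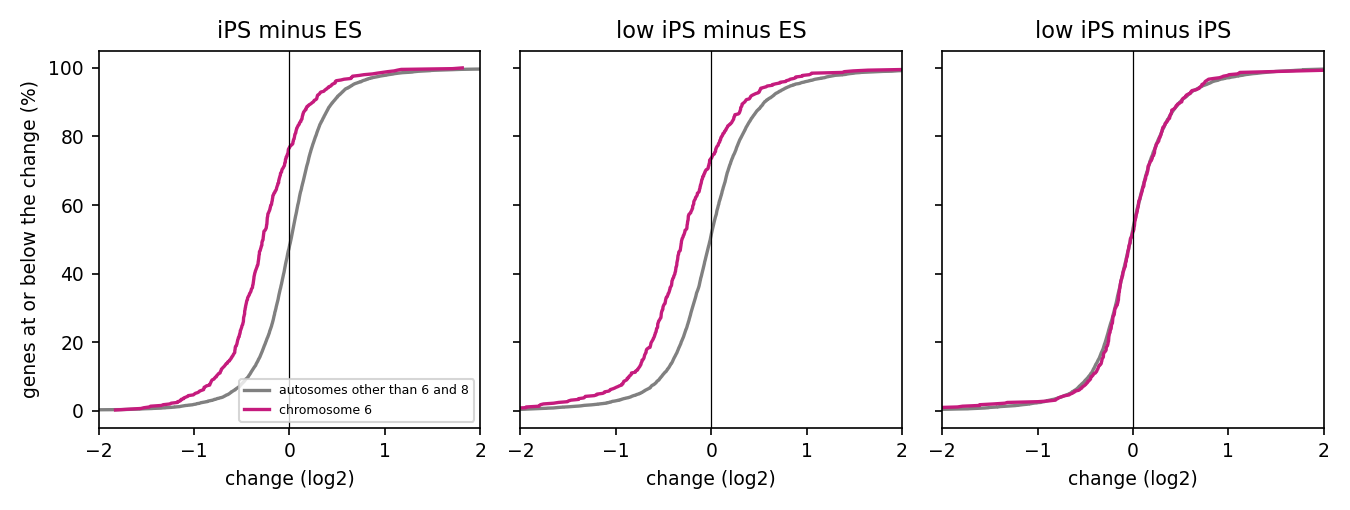
Cumulative share of genes, in percent, at or below each log2 change in the 3 comparisons of lines, for chromosome 6 and for the autosomes other than 6 and 8; changes beyond 2 in either direction are off the axis. The chromosome 6 curve lies to the left over most of its length in the ES comparisons, with 76.7% and 73.6% of genes below 0, and runs with the other autosomes in low iPS against iPS.

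The order of the arrays was also counted gene by gene. Both ES arrays stood above all 4 arrays of the iPS lines for 166 of the 454 genes (36.6%), against 12.3% of all genes tested. Both stood below all 4 for 21 genes (4.63%), against 10% of all genes. Since the chromosome was chosen on this contrast, these shares describe the shift and do not test it.

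The shift was smallest in the dimmest genes. Among the 151 brightest of the 454 genes the median was -0.37 in iPS against ES, 1.29-fold, with 91.4% of genes below 0. The 151 genes of middle level had -0.32, with 77.5% below 0, and the 152 dimmest had -0.09, with 61.2% below 0. In low iPS against ES the bright, middle and dim groups had -0.35, -0.37 and -0.10. Genes of the same levels on the other autosomes stayed between -0.03 and 0.01 in both comparisons. Dim features lie near the background, and the part of this in the smaller shift was not tested.

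**Figure D3:**
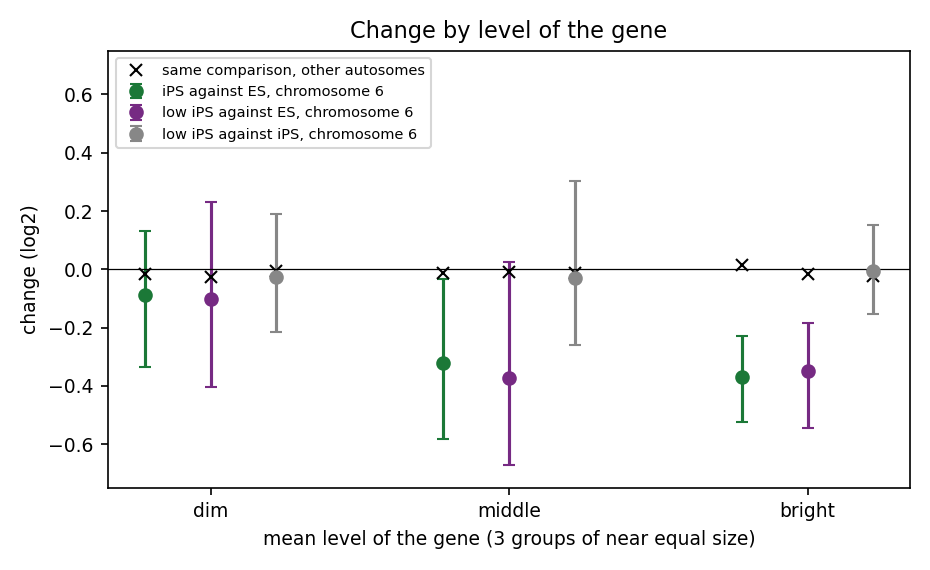
Median log2 change (points) and 25th to 75th percentile (bars) of chromosome 6 genes with dim, middle and bright mean levels, with crosses for the other autosomes at the same level in the same comparison. In the ES comparisons the medians go from -0.09 and -0.10 in the dim genes to -0.37 and -0.35 in the bright, while the crosses stay near 0.

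The shift was spread along the whole chromosome. The 437 genes with a position in RefSeq were cut, in their order on the chromosome, into 10 stretches of 43 or 44 genes. All 10 had a median below 0 in both ES comparisons, from -0.35 to -0.22 in iPS and from -0.40 to -0.21 in low iPS. The lowest stretch in iPS ran from Ggct to Suclg1 and that in low iPS from Rassf4 to Spsb2, which holds Nanog. The stretch with the smallest shift in low iPS, at -0.21, ran from Gpr27 to Olfr213, and the one in iPS, at -0.22, from Ahcyl2 to Olfr437. Of 184 stretches of like size on the other autosomes, 11 in iPS and 2 in low iPS were below the highest stretch of chromosome 6, and all of these were on chromosome 8. Between the iPS lines the stretches of chromosome 6 ran from -0.11 to 0.11.

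**Figure D4:**
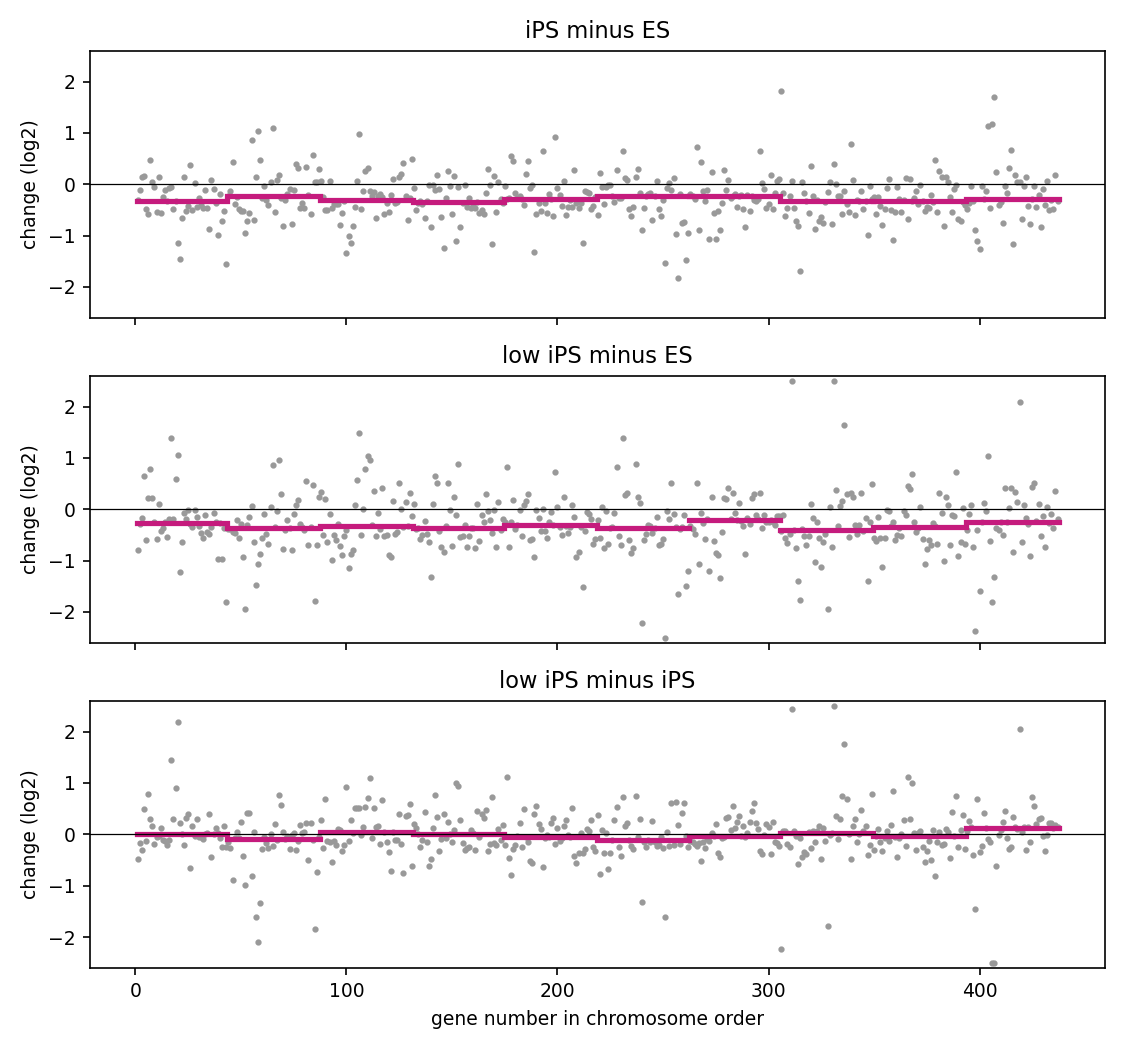
Log2 change of each of the 437 placed genes against its number in chromosome order, for the 3 comparisons; bars mark the medians of 10 stretches, and changes beyond 2.5 are drawn at 2.5. All bars lie below 0 in both ES comparisons, from -0.40 to -0.21, and between -0.11 and 0.11 in low iPS against iPS.

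Features other than the one that stood for a gene gave a further reading. Of the 454 genes, 123 had more than 1 kept feature, and their 174 further features had medians of -0.31 in iPS against ES, -0.27 in low iPS against ES and 0.06 in low iPS against iPS. In addition 98 genes that RefSeq places on chromosome 6 were read by features to which the table gives no chromosome, so that they are no members. Their medians were -0.21 in iPS against ES, with 73 below 0, and -0.17 in low iPS against ES, with 63 below 0. For 1543 genes of the other autosomes found in the same way the medians were -0.01 and -0.02. These features come from the same RNA and arrays as the members and are not a separate sample.

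Single genes were tested with limma over all 12634 genes, 2 samples a line, with Benjamini-Hochberg adjustment and calls at an adjusted p under 0.05. In iPS against ES 2 genes of the chromosome were called higher (0.441%, against 0.404% of all genes) and 0 lower (against 0.372%). At an unadjusted p under 0.05, 103 of the 454 were lower. That count was not taken over all genes, so nothing is read from it. The 2 higher genes were Rerg and Rassf4. Without iPS replicate 1 they rose by 1.54 and 1.83, and without ES replicate 2 by 1.59 and 1.64. Neither was called in those fits. Rerg was also not called without either low iPS array. Genes called lower appeared without ES replicate 1, where the share of all genes called lower rose too. With the replicate number of the labels as a block, the counts were 3 higher and 11 lower in iPS against ES. They were 14 and 43 in low iPS against ES, and 9 and 11 in low iPS against iPS. The block raised calls over all genes too, to 1.16% higher and 1.1% lower in iPS against ES. Over all genes it gave 3.85% and 3.49% in low iPS against ES, and 2.81% and 2.41% in low iPS against iPS. Without the block, low iPS against ES had 7 higher (1.54%, against 2.29%) and 24 lower (5.29%, against 1.86%). That contrast chose the chromosome, so nothing is read from the excess of lower genes. Low iPS against iPS had 5 higher (1.10%, against 1.18%) and 6 lower (1.32%, against 1.08%), close to the shares of all genes. Both counts were smaller without iPS replicate 1 or either low iPS array, and so were the shares of all genes.

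To find the genes that depart from the common shift, the median of each chromosome was subtracted on every array before the same fit, and a departure is the change that remains. Between low iPS and iPS 4 genes departed upward (0.881%, against 1.08% of all genes) and 7 downward (1.54%, against 0.958%). Between low iPS and ES 15 departed upward (3.30%, against 2.41%) and 12 downward (2.64%, against 1.86%). In iPS against ES 4 departed upward (0.881%, against 0.459%) and 0 downward (against 0.372%). At an unadjusted p under 0.05, 32 departed downward, a count that was not taken over all genes either. The replicate block gave 9 upward and 11 downward between low iPS and iPS, and 24 and 21 between low iPS and ES. It gave 11 and 3 between iPS and ES. Departures over all genes were not counted with the block, so nothing is read from these counts.

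The promoters of Fxyd4, St8sia1, Clec4a1 and Gpr85 are shown because these genes departed upward in low iPS against both other lines, and that of Rassf4 because it departed upward in iPS and downward in low iPS against iPS. Each is the RefSeq window of build GRCm38.p6 from 250 bases before to 50 after the annotated start, written 5′ to 3′ on the strand of the gene. Capitals mark the GC box (GGGCGG) or the CCAAT box on either strand, and a match of letters is not evidence of a bound site.
Fxyd4, chr6:117937286-117937585, minus strand: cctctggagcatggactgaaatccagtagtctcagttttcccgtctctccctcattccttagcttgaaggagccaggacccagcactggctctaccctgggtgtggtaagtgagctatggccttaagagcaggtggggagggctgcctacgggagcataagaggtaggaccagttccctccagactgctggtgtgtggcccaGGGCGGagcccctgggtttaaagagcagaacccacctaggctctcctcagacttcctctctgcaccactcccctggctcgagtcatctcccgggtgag
St8sia1, chr6:142964403-142964702, minus strand: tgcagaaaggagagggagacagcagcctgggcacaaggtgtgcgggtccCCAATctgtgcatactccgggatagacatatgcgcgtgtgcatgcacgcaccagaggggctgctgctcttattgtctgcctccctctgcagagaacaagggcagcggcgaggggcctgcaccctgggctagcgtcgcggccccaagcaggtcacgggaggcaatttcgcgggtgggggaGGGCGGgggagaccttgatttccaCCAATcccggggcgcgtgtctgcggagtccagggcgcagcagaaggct
Clec4a1, chr6:122921598-122921897, plus strand: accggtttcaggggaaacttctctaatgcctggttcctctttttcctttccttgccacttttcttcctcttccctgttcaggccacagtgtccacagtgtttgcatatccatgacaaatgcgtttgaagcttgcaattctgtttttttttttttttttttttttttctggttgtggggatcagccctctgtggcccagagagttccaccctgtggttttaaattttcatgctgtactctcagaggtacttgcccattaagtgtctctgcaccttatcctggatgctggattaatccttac
Gpr85, chr6:13839893-13840192, minus strand: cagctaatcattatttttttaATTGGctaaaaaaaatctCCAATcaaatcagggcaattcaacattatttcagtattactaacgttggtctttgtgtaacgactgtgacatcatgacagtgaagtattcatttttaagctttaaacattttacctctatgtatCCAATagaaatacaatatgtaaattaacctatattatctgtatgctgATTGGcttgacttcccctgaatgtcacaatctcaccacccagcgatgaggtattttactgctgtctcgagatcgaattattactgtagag
Rassf4, chr6:116673787-116674086, minus strand: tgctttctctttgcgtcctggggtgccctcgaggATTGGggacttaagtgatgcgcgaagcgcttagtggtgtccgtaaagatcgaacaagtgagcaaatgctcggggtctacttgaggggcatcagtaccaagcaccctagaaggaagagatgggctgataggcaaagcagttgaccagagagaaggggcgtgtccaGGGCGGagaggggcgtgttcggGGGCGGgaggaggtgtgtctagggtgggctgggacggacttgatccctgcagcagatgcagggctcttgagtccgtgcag

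Promoter windows were found for 368 of the 454 genes and for 21 of the departing genes named below. The GC box was in 10 of those 21 windows, in 65.5% of the 368 and in 35.9% of all 27025 windows. CCAAT was in 7 of 21, in 39.9% and in 37.9%, and TATAAA in 2 of 21, in 8.42% and in 14.2%. The octamer ATGCAAAT, the sequence that Oct4 is known to read, was in 0 of the 21 windows, in 3 of the 368 (0.815%) and in 1.75% of all. Both strands were searched for each motif. The kept genes had richer GC in these windows, with a median of 59.7% against 52.7% of all.

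Low iPS cells were set apart from both other lines by 4 genes that were higher there. Fxyd4, whose protein belongs to a family of small regulators of the sodium pump, read 7.34 and 7.09 in low iPS, 4.73 and 4.81 in iPS, and 4.50 and 4.93 in ES. The low iPS arrays stood far above the other 4, on which the feature was not detected. Its level in low iPS was at least 4.33-fold that in iPS (adjusted p = 0.00416) and at least 4.46-fold that in ES (adjusted p = 0.00237), where the bound gives the dim line, on each array, its own signal or the dimmest signal still detected there, whichever is higher.

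St8sia1, which encodes the sialyltransferase that makes the ganglioside GD3, read 6.59 and 6.63 in low iPS, 4.45 and 4.67 in iPS, and 4.51 and 4.54 in ES. It too was detected on the low iPS arrays only, at least 2.84-fold above iPS (adjusted p = 0.00416) and at least 2.92-fold above ES (adjusted p = 0.00236). Clec4a1, a lectin-like receptor known from myeloid cells, read 6.53 and 6.03 against 4.51 and 4.52 in iPS and 4.68 and 4.59 in ES. Its bounds were at least 2.26-fold over iPS (adjusted p = 0.0133) and at least 2.33-fold over ES (adjusted p = 0.00973). These 3 genes met the detection rule only through the low iPS arrays, so a gene of this kind had to differ in order to be a member.

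Gpr85, an orphan receptor of the brain, was detected on all 6 arrays and read 6.77 and 6.71 in low iPS, 5.45 and 5.15 in iPS, and 5.48 and 5.22 in ES. The low iPS arrays did not overlap with the others, and the gene rose by 1.44 ± 0.20 (SE) against iPS (adjusted p = 0.0175) and by 1.39 ± 0.20 against ES (adjusted p = 0.0135). All 4 genes also departed upward from the chromosome median in both comparisons of low iPS. The members were set on all 6 arrays in each fit that left an array out. For Fxyd4, St8sia1 and Clec4a1 a low iPS array left out therefore still decided membership. Fxyd4 kept that departure in both comparisons whichever array was left out, and St8sia1 lost it only in low iPS against iPS without iPS replicate 1 (adjusted p = 0.0551). Clec4a1 lost it in low iPS against iPS without iPS replicate 1, iPS replicate 2 or low iPS replicate 1 (adjusted p = 0.108, 0.0526 and 0.0782) and kept it against ES. Gpr85 lost it against iPS whichever array of those lines was left out (adjusted p = 0.103 to 0.173) and against ES without ES replicate 2 or either low iPS array (adjusted p = 0.0543 to 0.0716).

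Between the iPS lines 7 genes departed downward, all of them lower in low iPS. Rerg encodes a small GTPase related to RAS, and it read 8.07 and 7.72 in iPS, 4.79 and 4.94 in low iPS, and 6.31 and 6.07 in ES. The 3 lines did not overlap. It was not detected in low iPS, where it was at least 7.11-fold below iPS (adjusted p = 0.00205) and at least 2.17-fold below ES (adjusted p = 0.0166). In iPS it rose by 1.71 ± 0.20 over ES (adjusted p = 0.0176).

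Arhgdib, a regulator of small GTPases best known from blood cells, is the neighbour of Rerg among the tested genes. It read 10.08 and 9.25 in iPS, 7.23 and 6.16 in low iPS, and 8.45 and 8.54 in ES, in the same order of lines as Rerg. It fell by 2.97 ± 0.39 from iPS to low iPS (adjusted p = 0.0167), while its change of -1.80 against ES did not pass (adjusted p = 0.0526). Rassf4, which encodes a protein that binds RAS, read 6.87 and 6.85 in iPS, 4.60 and 4.66 in low iPS, and 5.22 and 4.88 in ES. The iPS arrays stood apart, at least 3.47-fold above low iPS (adjusted p = 0.00416) and 1.81 ± 0.19 above ES (adjusted p = 0.0114).

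Phc1, a polyhomeotic subunit of the Polycomb repressive complex PRC1, lies in the neighbourhood of Nanog. It read 10.69 and 10.43 in iPS, 9.01 and 8.52 in low iPS, and 10.75 and 10.67 in ES. Only the low iPS arrays were low, and the gene fell by 1.79 ± 0.22 against iPS (adjusted p = 0.0139) and by 1.94 ± 0.22 against ES (adjusted p = 0.00637). Zyx, which encodes the focal adhesion protein zyxin, was also low on the low iPS arrays alone, with 8.52 and 8.39 in low iPS against 10.57 and 10.02 in iPS and 9.80 and 10.69 in ES. It fell by 1.84 ± 0.32 against iPS (adjusted p = 0.0387) and by 1.79 ± 0.32 against ES (adjusted p = 0.0287).

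Slc41a3, of a family of magnesium transporters, read 5.85 and 6.48 in iPS, 4.99 and 4.71 in low iPS, and 6.81 and 7.32 in ES. It was not detected in low iPS, at least 3.997-fold below ES (adjusted p = 0.00876), and its departure from the chromosome median also passed against iPS (adjusted p = 0.0387). Akr1b8, an aldo-keto reductase, read 8.92 and 8.01 in iPS, 6.50 and 6.22 in low iPS, and 7.72 and 7.14 in ES. It fell by 2.10 ± 0.34 from iPS to low iPS (adjusted p = 0.0286). Akr1b8 has close copies beside it (Akr1b3 and Akr1b7), and how far its feature reads them was not examined.

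Of these 7 downward departures in low iPS against iPS only that of Rerg was kept whichever array was left out. That comparison had 11 departures, 4 upward and 7 downward, and fewer in total when any array of its lines was left out. Departures over all genes were not counted in those fits, so nothing is read from the lower counts. Rassf4 was lost only without iPS replicate 1 (adjusted p = 0.0762), and Arhgdib and Phc1 when iPS replicate 1 (adjusted p = 0.118 and 0.139) or low iPS replicate 2 (adjusted p = 0.0774 and 0.108) was dropped. Zyx and Akr1b8 were lost without iPS replicate 1 or either low iPS array (adjusted p = 0.11 to 0.221), and Slc41a3 whichever array of those lines was left out (adjusted p = 0.111 to 0.245).

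**Figure D5:**
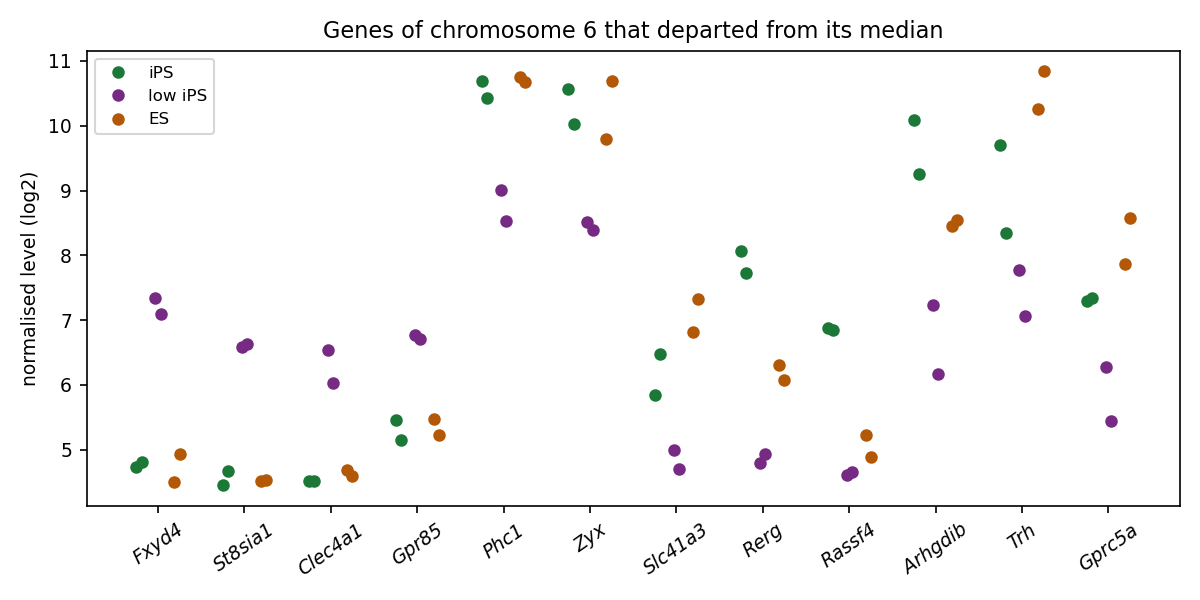
Normalised log2 level of 12 departing genes on the 6 arrays, 2 points for each line; levels are to be compared within a gene only. Fxyd4, St8sia1, Clec4a1 and Gpr85 are high on the low iPS arrays alone, Phc1, Zyx and Slc41a3 are low there, and Rerg, Rassf4 and Arhgdib are high on the iPS arrays.

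Against ES, low iPS cells had further genes that went with or against the common shift. Dppa3 read 9.13 and 10.45 in low iPS, 7.40 and 5.07 in ES, and 6.02 and 7.23 in iPS, with a wide spread within each line. Its departure from the chromosome median was 3.86 ± 0.81 (adjusted p = 0.0433), while its change of 3.55 did not pass (adjusted p = 0.0549). The departure was called without ES replicate 1 and missed the threshold when any of the other 5 arrays was left out (adjusted p = 0.0582 to 0.225).

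Gpnmb, a membrane glycoprotein, read 7.90 and 7.04 in low iPS against 6.22 and 5.74 in ES, and rose by 1.49 ± 0.31 (adjusted p = 0.0445). Mgll, the lipase that splits monoacylglycerols, read 6.48 and 7.02 against 5.60 and 5.15, and rose by 1.38 ± 0.25 (adjusted p = 0.0285). In both genes the iPS arrays lay between the other lines. Creb3l2, a transcription factor anchored in the endoplasmic reticulum, and Uroc1, the urocanase of histidine breakdown, passed as departures only, of 1.26 ± 0.26 (adjusted p = 0.0416) and 1.20 ± 0.25 (adjusted p = 0.0455). Their uncentred changes of 0.95 and 0.89 did not pass (adjusted p = 0.138 and 0.063). A dimmer further feature of Creb3l2 changed by only 0.14 in low iPS against ES (adjusted p = 0.842).

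Trh, the gene of thyrotropin-releasing hormone, read 7.77 and 7.06 in low iPS, 9.70 and 8.35 in iPS, and 10.26 and 10.84 in ES. It fell by 3.13 ± 0.46 against ES (adjusted p = 0.0148), the largest fall of a chromosome 6 gene in that comparison among those named. Gprc5a, an orphan receptor induced by retinoic acid, read 6.28 and 5.44 against 7.87 and 8.58 in ES, and fell by 2.36 ± 0.33 (adjusted p = 0.0135). The lines did not overlap in either gene, and iPS lay between the others.

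In another group the iPS lines were alike and both lay below ES. Smo, the membrane protein that carries the hedgehog signal, read 5.65 and 6.11 in low iPS, 5.96 and 6.30 in iPS, and 7.25 and 8.12 in ES. Its fall of 1.81 ± 0.32 passed in low iPS (adjusted p = 0.0271), and its change of -1.56 in iPS did not (adjusted p = 0.0963). A dimmer further feature of Smo changed by -0.93 in low iPS and -0.75 in iPS. Neither passed in limma over all kept features (adjusted p = 0.0794 and 0.234). Dcp1b, a cofactor of mRNA decapping, read 5.44 and 5.89 in low iPS, 5.32 and 6.16 in iPS, and 7.47 and 7.38 in ES. It fell by 1.76 ± 0.30 in low iPS (adjusted p = 0.0243), with -1.68 in iPS (adjusted p = 0.0647).

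Tia1, an RNA-binding protein of stress granules, read 6.72 and 6.67 in low iPS, 7.21 and 6.91 in iPS, and 7.81 and 8.60 in ES, and fell by 1.51 ± 0.28 in low iPS (adjusted p = 0.0305). Foxp1, a forkhead transcription factor, and Tafa4, a secreted protein of neurons, were detected on the ES arrays only. Foxp1 was at least 2.31-fold lower in low iPS (adjusted p = 0.0269), and Tafa4 at least 2.30-fold lower (adjusted p = 0.0287). In iPS against ES their adjusted p was 0.0647 and 0.0503, and a pass in 1 line and a miss in the other is no difference between the lines. Both genes met the detection rule only through the ES arrays, so they too had to differ in order to be members.

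Of the named departures in low iPS against ES, those of Fxyd4, St8sia1 and Clec4a1 were kept whichever array was left out. Far fewer than the 15 upward and 12 downward were called without ES replicate 2 or either low iPS array. Departures over all genes were not counted in those fits, so nothing is read from the lower counts. Phc1 and Slc41a3 were lost only without low iPS replicate 2 (adjusted p = 0.0926 and 0.056), and Trh, Gprc5a and Mgll only without that array or ES replicate 2 (adjusted p = 0.0607 to 0.128). Gpnmb was lost without ES replicate 2 or low iPS replicate 1 (adjusted p = 0.111 for each), and its change without any array but ES replicate 1 (adjusted p = 0.0548 to 0.173). The change of Clec4a1 was lost without ES replicate 2 or low iPS replicate 1 (adjusted p = 0.0515 and 0.058), that of Mgll also without low iPS replicate 1 (adjusted p = 0.058), and that of Rerg without ES replicate 2 or either low iPS array (adjusted p = 0.0537 to 0.101). Smo, Dcp1b, Tia1, Foxp1, Tafa4, Creb3l2, Uroc1 and Zyx were each lost without at least 3 of the arrays, ES replicate 2 and low iPS replicate 2 among them (adjusted p = 0.0725 to 0.249 without those).

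In iPS against ES all 4 departures were upward. They were Rassf4 and Rerg, given above, the histone gene H2aj, and Podxl, which encodes podocalyxin, a sialomucin of the cell surface. These are readings of the brightest feature of each gene. A dimmer feature of Fgfr1op2, picked after its values were seen, rose by 2.61 in iPS against ES (adjusted p = 0.000864). In low iPS against ES it rose by 2.46 (adjusted p = 0.000843), both from limma over all kept features. The feature used for Fgfr1op2 changed by -0.20 and 0.10, so the features disagree. Podxl read 7.79 and 7.94 in iPS, 6.91 and 7.09 in ES, and 7.04 and 7.07 in low iPS, and departed by 1.20 ± 0.17 (adjusted p = 0.0301), while its change of 0.87 did not pass (adjusted p = 0.0935). Only the iPS arrays were high. Without iPS replicate 1 none of the 4 was called, and without ES replicate 2 or iPS replicate 2 only 1 was. Some downward departures were called without ES replicate 1, and departures over all genes were not counted there.

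H2aj read 5.72 and 5.67 in iPS, 5.84 and 5.38 in low iPS, and 4.56 on both ES arrays, where it was not detected. It was at least 1.55-fold above ES in iPS and at least 1.46-fold in low iPS, where its change also passed (adjusted p = 0.0375). A brighter feature of the same gene, to which the table gives no chromosome, had departures of -0.09 in iPS and -0.40 in low iPS (adjusted p = 0.912 and 0.377). The features disagree in sign, so no direction is given for the gene.

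Beside the departing genes given above, 14 genes were called lower in low iPS against ES, Rerg among them. Of these Zfp248, Vopp1, Tnpo3, Mtmr14 and Bid were picked for the text after their values were seen. Zfp248 and Vopp1 departed downward (adjusted p = 0.0267 and 0.039), and the others lay near the shift or below it without a called departure. Tnpo3, a nuclear import receptor, fell by 0.98 ± 0.18 (adjusted p = 0.0301), with a dim further feature at -0.07. Mtmr14, a phosphatase of phosphoinositides, fell by 0.88 ± 0.17 (adjusted p = 0.039), and its 4 further features ran from -1.07 to -0.74.

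Bid, which carries the death signal to mitochondria, read 8.89 and 8.68 in low iPS, 9.23 and 9.29 in iPS, and 9.97 and 9.84 in ES, and fell by 1.12 ± 0.18 (adjusted p = 0.0193). Lrp6, a coreceptor for Wnt, fell by 0.92 ± 0.17 (adjusted p = 0.0323), and Fancd2, of the Fanconi anaemia repair pathway, by 0.88 ± 0.19 (adjusted p = 0.0477). Chchd6, of the mitochondrial inner membrane, fell by 0.85 ± 0.18 (adjusted p = 0.0492). The calls of Fancd2 and Chchd6 were lost whichever array was left out, and that of Lrp6 whichever array of low iPS or ES was left out. The changes of Bid, Lrp6, Fancd2 and Chchd6 in iPS against ES were -0.64, -0.68, -0.84 and -0.62, none of them past the threshold. Against the 24 lower calls, few or none were made without ES replicate 2 or either low iPS array. The share of all genes called lower fell in those fits too.

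The 13 gene lists drawn up for the chromosome were followed through the shift. In RNA processing and translation 23 of 23 tested genes were below 0 in iPS against ES, with a median of -0.37, and none passed. For low iPS against ES 22 of 23 were below 0, with a median of -0.48, and 1 (Tia1) fell. Usp39, of the spliceosome, read 10.23 and 10.13 in iPS, 10.26 and 9.98 in low iPS, and 10.55 and 10.94 in ES, with both ES arrays above the others. Lists with this many genes are read against the chromosome, where 76.7% and 73.6% of all members were below 0. Among its 151 brightest members 91.4% and 85.4% were below 0, and the lists were not matched for level.

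Mitochondrial respiration and structure had 18 of 20 listed genes tested. Below 0 were 17 in iPS against ES, with a median of -0.37, and 18 in low iPS against ES, with a median of -0.33, of which 1 (Chchd6) fell. Cycs, which encodes cytochrome c, read 11.47 and 11.34 in iPS, 11.70 and 11.38 in low iPS, and 11.95 and 12.16 in ES, with no overlap between ES and the other lines. Its changes of -0.65 and -0.52 did not pass (adjusted p = 0.222 and 0.204).

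In the list of cell cycle, replication and repair 13 of 14 tested genes were below 0 in iPS against ES, with a median of -0.47, and 12 of 14 in low iPS, with a median of -0.56. Fancd2 alone was called, in low iPS. Mad2l1, of the spindle checkpoint, read 11.08 and 10.82 in iPS, 10.94 and 10.76 in low iPS, and 11.36 and 11.79 in ES, above the others without a call (adjusted p = 0.259 and 0.12). Gadd45a, a gene of the DNA damage response, read 8.20 and 8.35 in iPS, 8.30 and 9.05 in low iPS, and 9.26 and 9.77 in ES (adjusted p = 0.13 and 0.174).

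Chromatin and DNA modification had 19 of 21 tested genes below 0 in iPS against ES (median -0.23) and 17 of 21 in low iPS (median -0.31). Phc1 alone was called, lower in low iPS. Chd4, the helicase of the NuRD complex, read 9.07 and 9.26 in iPS, 9.26 and 8.97 in low iPS, and 9.80 and 9.62 in ES, and its changes of -0.54 and -0.60 did not pass (adjusted p = 0.275 and 0.15). Ezh2, the methyltransferase of Polycomb complex PRC2, read 10.56 and 10.28 in iPS, 11.27 and 10.97 in low iPS, and 10.61 and 11.23 in ES, where low iPS and ES overlapped.

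Glycolysis and carbohydrate metabolism had 7 of 10 tested genes below 0 in iPS against ES (median -0.24) and 9 of 10 in low iPS (median -0.46), with no call. Gapdh, the dehydrogenase often used as a reference gene, read 13.86 and 14.08 in iPS, 13.74 and 14.05 in low iPS, and 14.09 and 14.43 in ES. Its changes of -0.29 and -0.36 (adjusted p = 0.608 and 0.412) lay close to the chromosome median. Akr1b8 was the 1 gene of the list called in low iPS against iPS.

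Smaller lists gave few calls. In receptor and RAS signalling, with 7 of 17 listed genes tested, Rerg was lower in low iPS against ES, higher in iPS against ES and lower in low iPS against iPS. Wnt and Hippo signalling, with 6 tested, held Lrp6, lower in low iPS against ES. Tcf7l1, picked after its values were seen, is the repressor of Wnt targets that restrains pluripotency genes, and it read 11.43 to 11.64 on the 6 arrays, with changes of 0.04 and 0.14 against ES (adjusted p = 0.951 and 0.726). Amino acid and one-carbon metabolism had 7 of 7 genes tested and no call, and medians of -0.04 and -0.20 against ES. Mthfd2, the mitochondrial folate enzyme, was the farthest from ES in that list, at -1.32 in iPS and -0.94 in low iPS (adjusted p = 0.105 and 0.123).

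Of the Nanog neighbourhood 6 of 8 listed genes were tested. Gdf3, a growth factor of the TGF-beta family, was read by a feature to which the table gives no chromosome, so that it is no member. It lay at 10.90 and 10.43 in iPS, 10.35 and 10.30 in low iPS, and 10.76 and 10.62 in ES, and no change passed (adjusted p = 0.403 to 0.97). Nanog itself read 12.18 and 12.66 in iPS, 12.80 and 12.77 in low iPS, and 12.58 and 12.25 in ES. The lines lay within 0.37 of each other and no change passed (adjusted p = 0.433 to 0.995). Slc2a3 read 13.41 and 13.89 in iPS, 13.53 and 13.59 in low iPS, and 13.70 and 14.06 in ES, with changes of -0.23 and -0.32 against ES (adjusted p = 0.714 and 0.508). Apobec1, a cytidine deaminase that edits RNA, had changes of -0.77 and -0.74 (adjusted p = 0.219 and 0.137). Dppa3 and Phc1, given above, lay on opposite sides of the median in low iPS although they are separated by only a few tested genes.

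The gene clusters named at the outset had few detected members. Of 12 Hoxa genes 4 were tested and none was called, with Hoxa7 at 5.75 and 6.24 in iPS, 5.37 and 5.21 in low iPS, and 6.23 and 6.19 in ES (adjusted p = 0.713 and 0.0592 against ES). Of 11 imprinted genes 5 were tested and none was called. Mest, a paternally expressed gene, read 8.65 and 7.43 in iPS, 7.54 and 6.55 in low iPS, and 9.02 and 8.96 in ES. Its change of -1.94 in low iPS against ES did not pass (adjusted p = 0.0584). A further feature of Mest was called lower there, at -1.98 (adjusted p = 0.039), and another, at -1.67, was not (adjusted p = 0.061). Of 53 genes of the natural killer complex 5 were tested, and of 12 T cell and Gimap genes 2, with no call among these members. Klra1, a Ly49 receptor of that complex, was read by a feature with no chromosome in the table and is no member, and it was called higher in low iPS, at least 11.1-fold over iPS (adjusted p = 0.00183) and at least 11.5-fold over ES (adjusted p = 0.000607). That feature was detected on the low iPS arrays only. Genes of a list that were read through such unplaced features are not among those counted as tested, and a feature that was not detected says only that this feature was not above background.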

How the data were processed

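RNA was purified with an RNeasy kit, then amplified and biotin-labelled with Ambion reagents, per the labels. For each of 45281 features on each of 6 arrays the deposited table gives, per the file headers, a mean bead intensity with its detection p-value. The intensity values as deposited were neither background-corrected nor normalised between arrays, and the steps of the deposited detection p-value of 1 in 936 show the number of negative controls. No array model, scanner software or annotation build is named in the labels or headers. A second deposited table of processed values was not used, because its identifiers match no column of the first.

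Background correction used nec of limma 3.58.1 in R 4.3.3 (offset 16), which takes the controls from the detection p-values, log2 values were quantile normalised, and features detected (p under 0.05) on at least 2 arrays were kept. Each gene was read by its brightest kept feature, with features placed on a chromosome by the table preferred. Names were updated through the RefSeq table of GRCm38.p6, used for names and gene order only: 27743 features matched a symbol, 7992 a synonym, 9546 kept the table's name, and 17 symbol matches on another chromosome were refused. Chromosomes are those of the deposited table. Fits used lmFit and eBayes on 3 line means over 6 arrays, with 3 residual and 4.27 prior degrees of freedom. For departures, the median of each chromosome with at least 50 genes was subtracted on every array. The labels number the samples of each line without saying what a number marks. Deviations from the line means of same-numbered samples correlated at 0.296 (iPS with low iPS), 0.322 (iPS with ES) and 0.176 (low iPS with ES), so counts with the replicate number as a block are given too. The procedure was tested on simulated data.

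Named genes are up to 10 departures in each direction that were called, did not overlap between lines, have both arrays detected in the higher line and carry no clone-like name; up to 4 members of each of 13 gene lists with the smallest p; and Nanog, Dppa3, Gdf3, Slc2a3 and Apobec1. The members and lists were chosen with earlier results of these data known. Depth of a bead array is not a count, and the number of arrays limits the precision. Results for some genes are not reported here.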

Additional observations from a re-analysis of the deposited data

How the results depend on the processing

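The median of chromosome 6 lay between -0.38 and -0.047 in low iPS against ES and between -0.38 and -0.043 in iPS against ES over 18 alternatives, and it did not change sign. Without the detection filter, which adds dim genes, it was -0.047 and -0.043, and without background correction -0.20 in low iPS against ES. Leaving out 1 array gave -0.38 to -0.19 in low iPS against ES, -0.38 to -0.21 in iPS against ES, and -0.026 to 0.0087 in low iPS against iPS. In low iPS against iPS the median was 0.068 with median scaling, which moved the median of all genes there from -0.02 to 0.07 and left the chromosome -0.01 from the other autosomes. It was -0.00643 without the filter, -0.00872 with the mean of the features of a gene, 0.00794 with every feature on its own, -0.00185 with unplaced features added and -0.00397 with genes above the median level only; the last pair of alternatives was chosen after seeing the data.

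Counts of calls are given as higher and lower, for changes and then for departures. Genes detected on all 6 arrays gave 1 and 4, then 1 and 4 in low iPS against iPS; 3 and 16, then 8 and 7 in low iPS against ES; 0 and 0, then 1 and 0 in iPS against ES. Without the filter the counts were 2 and 2, then 2 and 2; 4 and 8, then 4 and 8; and 1 and 0, then 1 and 0. Genes above the median level gave 0 and 4, then 0 and 3; 0 and 13, then 8 and 4; and 0 and 0, then 1 and 0. These alternatives change the genes tested, to 9751, 28913 and 6317. The shares of all genes called higher and lower follow, in the same order of comparisons. Detected on all 6 arrays, they were 0.554% and 0.82%, 1.8% and 1.64%, and 0.154% and 0.185%. Without the filter they were 0.1% and 0.0934%, 0.38% and 0.277%, and 0.0484% and 0.0311%. Above the median level they were 0.823% and 1.08%, 2.14% and 1.99%, and 0.19% and 0.174%. Departures over all genes were not counted there. Every feature on its own gave 12 higher in low iPS against ES (against 2.27% of all 18175 features). It gave 4 higher and 1 lower in iPS against ES (against 0.369% and 0.347%). The lower count of iPS against ES was 1 with an offset of 50 (against 0.42% of all genes). It was also 1 without background correction (against 0.396%) and with median scaling (against 0.427%), and 2 with the mean of features (against 0.475%). Fits on the 4 arrays of a comparison alone gave 1 higher in iPS against ES (against 0.198%). The cause of the other shifts was not tested.

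Leaving out 1 array at a time gave these ranges, and the share of all genes with a called change moved with the array too. Departures over all genes were not counted in those fits. In low iPS against iPS, 2 to 7 genes were higher and 2 to 7 lower, and 1 to 6 departed upward and 1 to 9 downward. In low iPS against ES, 2 to 7 were higher and 0 to 24 lower, and 3 to 12 departed upward and 0 to 12 downward. In iPS against ES, 0 to 2 were higher and 0 to 8 lower, and 0 to 4 departed upward and 0 to 4 downward.

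A replicate block raised the counts to 9 and 11, then 9 and 11 in low iPS against iPS; 14 and 43, then 24 and 21 in low iPS against ES; and 3 and 11, then 11 and 3 in iPS against ES, and left all 69 named single-gene results called. The block raised the shares of all genes called as well, as given above. With unplaced features added, H2aj gave -0.68 in its change and -0.40 in its departure in low iPS against ES. In iPS against ES its departure was -0.090. Of the 69, 24 stayed called without the filter and 21 without low iPS replicate 2, the lowest of the arrays left out. The processed value table was planned as an alternative and not run, since its rows could not be matched. Dim features are limited by background, and 2 samples of 1 line each limit every p-value.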

Other observations

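Of the 98 genes that RefSeq places on chromosome 6 but to which the table gives no chromosome, 8 were called in at least 1 comparison. By comparison, 1 was higher and 2 lower in low iPS against iPS (against 1.18% and 1.08% of all genes). In low iPS against ES 3 were higher and 3 lower (against 2.29% and 1.86%). In iPS against ES 1 was higher and 0 lower (against 0.404% and 0.372%). Nothing is read from these counts. Klra1, named Klra22 in the table and one of the Ly49 receptors, read 8.84 and 8.33 in low iPS, 4.79 and 4.70 in iPS, and 4.69 and 4.39 in ES. Its feature was detected in low iPS alone, at least 11.1-fold above iPS (adjusted p = 0.00183 from limma) and at least 11.5-fold above ES (adjusted p = 0.000607). It was kept only through the low iPS arrays, so it had to differ in order to be tested. The Klra genes are close copies of each other, and which copy the feature reads was not examined. Adamts9, a secreted protease, read 6.72 and 6.92 in iPS, 5.96 and 6.26 in low iPS, and 4.56 and 4.64 in ES, where it was not detected. It was at least 3.38-fold above ES in iPS (adjusted p = 0.006) and at least 2.07-fold in low iPS (adjusted p = 0.00876). Prickle2, of the planar cell polarity pathway, was 6.63 and 7.23 on the iPS arrays and 4.90 and 5.32 on the low iPS arrays, a fall of 1.82 ± 0.25 (adjusted p = 0.0188). Ipo8, a nuclear import receptor, read 7.96 and 7.93 in low iPS and 8.82 and 8.92 in ES, a fall of 0.93 ± 0.17 (adjusted p = 0.0296). These genes were picked after their values were seen, and the others called included Dennd11, Dennd2a and Scrn1.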
